A study of Mus musculus with 12 samples.

Results

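The genes described here are 10 carriers that move peptides and amino acids across the cells lining the duodenum, the first stretch of the small intestine. They were chosen by name for their known transport function and not by their values. Slc15a1 and Slc15a2 carry peptides. Slc6a19, Slc6a20a, Slc1a1 and Slc36a1 carry free amino acids. Slc3a1 with Slc7a9, and Slc3a2 with Slc7a7, are the chains of carriers built from a heavy and a light chain. They are 10 of the 22905 genes named on the arrays and were read by 17 probes, of which 14 passed the filter on dim probes described further on. Every one of the 10 genes kept at least 1 probe.

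Dietary protein is cut by peptidases of the gut lumen and the brush border, and the products enter the enterocyte as small peptides or as single amino acids. Slc15a1 takes up dipeptides and tripeptides together with protons, and a family of sodium-coupled carriers and exchangers takes up the amino acids. Most peptides are cleaved inside the cell, and the amino acids leave through exchangers of the basolateral membrane, which consist of the heavy chain Slc3a2 and a light chain such as Slc7a7.

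The study dosed mice with a pentapeptide, IIAEK in the letters of its amino acids, which its labels describe as cholesterol-lowering, and read mRNA levels of the duodenum on 1-colour expression arrays. The 4 groups were IAP knockout mice (Akp3-/-, lacking an intestinal alkaline phosphatase gene) given IIAEK, IAP knockout mice given vehicle, wild-type mice given IIAEK, and wild-type mice given vehicle, with 3 arrays in each. The oral dose of IIAEK was 600 mg/kg a day, and vehicle was a 5 g/L solution of sodium carboxymethylcellulose. The mice were males, 7 weeks old when dosing began, dosed once daily for 14 days by the titles and the design text, while the source labels of the IIAEK samples count the same span in weeks. All groups were fasted for 8 h before the duodenum was taken. Neither the strain nor the way the knockout was made is stated in the labels used here. Whole duodenum was used, so fewer cells of a type and less RNA per cell cannot be told apart.

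Between 55.9% and 64.0% of the probes of each array were well above background. The number of arrays, and not a read depth, limits the precision. Akp3 lay between -4.90 and -3.80 on the 6 knockout arrays and between 1.05 and 2.72 on the 6 wild-type arrays, without overlap. All 11 villus enterocyte markers were measured, and their mean level lay between 6.89 and 7.58 on every array. A list of stomach and Brunner's gland markers was at 4.61 or above on 6 arrays, which were all 3 wild-type vehicle arrays and 1 array of each other group. The mean pancreas marker level was 1.88 on wild-type vehicle replicate 1, which stood apart, and between 6.73 and 8.99 on the other 11 arrays. B cell markers were at 1.06 and 0.35 on wild-type vehicle replicates 1 and 2, and between -2.75 and -1.47 on the other 10. The arrays came from 2 slides, with 7 arrays on slide 1 and 5 on slide 2. Slide 2 held 2 of the knockout vehicle arrays and 1 array of each other group. All levels given are log2 intensities minus the 75th percentile of the same array, so that 0 stands for that percentile.

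At an adjusted p under 0.05 by limma, a linear model fitted to all features with its p-values adjusted over all of them, 0 of the 10 carriers passed in any of the 7 contrasts of genotype and peptide. The share of all 26107 features that passed was 0% for IIAEK against vehicle in knockout mice, 0% for the same contrast in wild-type mice and 0% for the difference between these IIAEK effects. It was 0.00766% for knockout against wild type under IIAEK and 0.00766% under vehicle. It was 0% for the IIAEK effect averaged over genotypes and 0.0192% for the knockout effect averaged over treatments. At an unadjusted p under 0.05, 0 carriers passed for IIAEK in knockout mice, against 1.91% of all features. The counts were 2 for IIAEK in wild-type mice (Slc15a2 and Slc6a20a, against 3.14% of features), 2 for knockout against wild type under IIAEK (Slc15a2 and Slc6a20a again, against 1.31%), and 2 for knockout against wild type under vehicle (Slc6a19 and Slc7a9, against 3.85%). For the difference between the IIAEK effects the count was 2 (Slc6a20a and Slc7a9, against 1.52%), and for each averaged effect it was 1, Slc15a2, against 2.94% for IIAEK and 3.03% for the knockout. The values below are therefore given with their intervals, and none of these unadjusted values holds after adjustment.

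**Figure D1:**
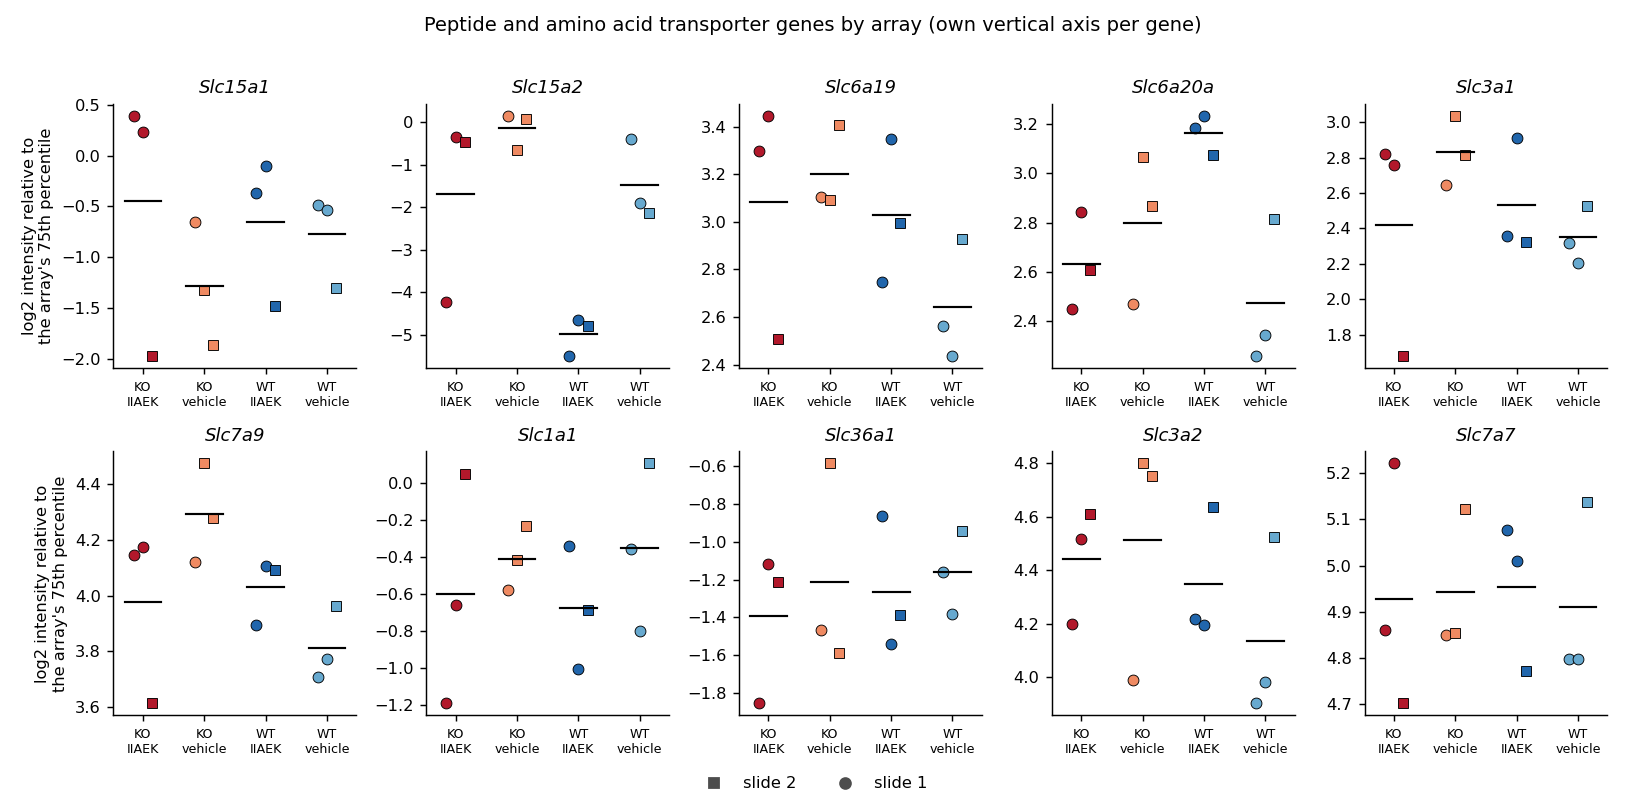
Level of each of the 10 carriers (vertical axis, log2 intensity minus the 75th percentile of the array) on every array, in the groups knockout IIAEK, knockout vehicle, wild-type IIAEK and wild-type vehicle from left to right. Squares are arrays of slide 2, circles arrays of slide 1, and the black line is the mean of 3 arrays. Slc15a2 spans 5.64 over the 12 arrays and Slc7a7 spans 0.52.

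The plot of levels by array shows how unequally the carriers varied within their groups. Slc15a2 had a within-group SD of 1.24, at the 98.5th percentile of all features, and Slc15a1 had one of 0.84, at the 95.6th percentile. The median feature had an SD of 0.302. Slc7a7, Slc7a9 and Slc6a20a were steadier than that, with SDs of 0.20, 0.20 and 0.24. The remaining carriers lay between 0.33 for Slc6a19 and for Slc3a2 and 0.43 for Slc1a1.

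Slc15a1 is the proton-coupled peptide carrier of the brush border, where it takes up dipeptides and tripeptides from digestion. It was well above background on all 12 arrays. Its level was 0.39, 0.23 and -1.97 in knockout mice given IIAEK, and -0.65, -1.32 and -1.86 in knockout mice given vehicle. It was -0.37, -0.10 and -1.48 in wild-type mice given IIAEK, and -0.49, -0.53 and -1.30 in wild-type mice given vehicle. In every group the arrays spread widely and the groups overlapped, and the lowest array of each group came from slide 2. The IIAEK difference was 0.83 (95% interval -0.48 to 2.14) in knockout mice and 0.13 (-1.18 to 1.43) in wild-type mice. The knockout difference was 0.20 (-1.11 to 1.51) under IIAEK and -0.50 (-1.81 to 0.80) under vehicle. All these intervals include 0 and reach beyond 1 on the log2 scale in at least 1 direction, so changes of that size are not excluded with 3 arrays a group.

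The slide stood out for this gene. With the groups in the model, Slc15a1 was lower on slide 2 than on slide 1 by a log2 difference of -1.31 (SE 0.21, 95% interval -1.78 to -0.84, limma, adjusted p = 0.00341). It lay between -1.97 and -1.30 on the slide 2 arrays and between -0.65 and 0.39 on the slide 1 arrays, without overlap. This contrast called 6871 of 26107 features, or 26.3%, so a slide difference was common on these arrays, and 5.67% of all features were lower on slide 2 without overlap. With slide as a block the IIAEK difference of Slc15a1 in knockout mice was 0.39 (SE 0.29), against 0.83 without it, and within slides it was -0.38 on slide 2 and 0.96 on slide 1. Without knockout IIAEK replicate 3, which was on slide 2, it was 1.59 (limma, adjusted p = 0.755). No contrast of genotype or peptide was called for Slc15a1 in any of these fits. The labels do not say what differed between the slides in handling, so slide and whatever was processed with it cannot be told apart.

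**Figure D2:**
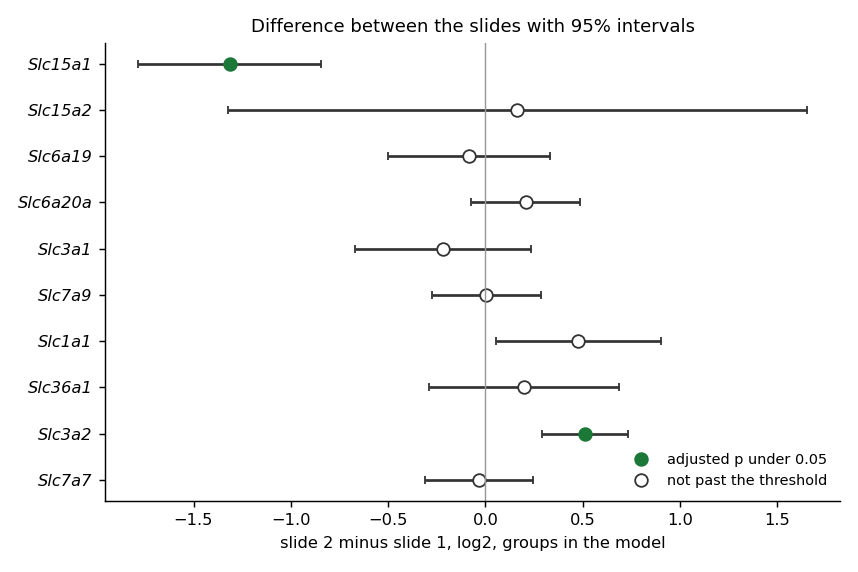
Difference of each carrier between slide 2 and slide 1 (log2, slide 2 minus slide 1, with the 4 groups in the model) with its 95% interval. Filled points passed an adjusted p under 0.05, namely Slc15a1 at -1.31 and Slc3a2 at 0.51.

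The difference between slides, plotted for all 10 carriers, passed the test for only 1 other of them. Slc3a2, the heavy chain shared by the basolateral exchangers, was higher on slide 2 by 0.51 without overlap, as 7.17% of all features were (SE 0.099, 95% interval 0.29 to 0.73, limma, adjusted p = 0.00656). Its second probe gave 0.66 (limma, adjusted p = 0.0208). Slc1a1 differed by 0.48 (95% interval 0.05 to 0.90) with an adjusted limma p of 0.0868, and its second probe gave 0.31. The other 7 carriers lay between -0.22 for Slc3a1 and 0.21 for Slc6a20a. The test of the slide was chosen after the data had been seen.

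Slc15a2 is the high-affinity peptide carrier, best known from the kidney tubule, and in the gut wall it has been described in enteric glia and tissue macrophages rather than in enterocytes. Its brightest probe was well above background on all 3 knockout IIAEK arrays, all 3 knockout vehicle arrays, 1 of 3 wild-type IIAEK arrays and all 3 wild-type vehicle arrays. The level was -4.23, -0.35 and -0.47 in knockout mice given IIAEK, and 0.15, -0.65 and 0.06 in knockout mice given vehicle. It was -5.49, -4.64 and -4.80 in wild-type mice given IIAEK, and -0.40, -1.89 and -2.13 in wild-type mice given vehicle. The wild-type IIAEK arrays were the 3 lowest of the 12, and 1 knockout IIAEK array, replicate 1, stood close to them and far from the other 2 of its group. The share of all features with 1 group below the other 3 was not computed.

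The IIAEK difference of Slc15a2 was -1.54 (SE 0.87, 95% interval -3.44 to 0.37) in knockout mice, where the groups overlapped. It rested largely on 1 array, since without knockout IIAEK replicate 1 it was -0.26. In knockout mice IIAEK and vehicle arrays were apart for 0 of 10 carriers, against 4.68% of all features (1.98% higher, 2.7% lower). In wild-type mice the difference was -3.50 (SE 0.87, 95% interval -5.41 to -1.60), a size read against background, since 1 of 3 wild-type IIAEK arrays measured the gene and the gene passed the filter through the other groups. The groups did not overlap, as for 3.69% of all features in that direction and 9.28% in either. Its unadjusted limma p of 0.00191 ranked 15th of all features, and its adjusted limma p was 0.999. The difference between these effects, knockout minus wild type, was 1.97 (-0.73 to 4.66, limma unadjusted p of 0.137) and 3.24 without knockout IIAEK replicate 1 (limma, adjusted p = 0.884), so they are not shown to differ. Knockout exceeded wild type under IIAEK by 3.29 (1.39 to 5.20) without overlap, as for 1.65% of all features in that direction, and under vehicle by 1.33 (-0.58 to 3.23).

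A single array decided the call for the genotype contrast. The calls below came only from fits that lack knockout IIAEK replicate 1, which was on slide 1 and so is absent within slide 2 too. That array, at -4.23, was the one that stood apart from its group. The wild-type IIAEK side was read against background, with 1 of 3 arrays well above it. These calls are therefore a description of what the array changed, and not support for a genotype difference. Without knockout IIAEK replicate 1, knockout exceeded wild type under IIAEK by 4.57 (limma, adjusted p = 0.0207), and the knockout effect averaged over treatments was 2.95 (limma, adjusted p = 0.0295). With slide as a block and without that array the values were 4.62 (limma, adjusted p = 0.0274) and 3.03 (limma, adjusted p = 0.0250). Within slide 2 each group is 1 array except for 2 of knockout vehicle, so the spread comes from that pair and the lone arrays are assumed to vary like it. There the values were 4.33 (limma, adjusted p = 0.0428) and 3.08 (limma, adjusted p = 0.00968). The IIAEK contrast in wild-type mice ranged from -3.83 to -2.96 as each array was left out in turn, and its lowest adjusted limma p was 0.249.

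Slc15a2 was read by 4 probes, and the 2 that passed the filter, which the scanner files assign to different transcripts of the gene, did not give the same size of difference. The second probe was -5.33, -3.99 and -3.96 in knockout mice given IIAEK, and -2.25, -3.28 and -3.24 in knockout mice given vehicle. It was -4.90, -5.01 and -3.72 in wild-type mice given IIAEK, and -2.69, -3.32 and -4.07 in wild-type mice given vehicle. It was well above background on 2 of 3 knockout IIAEK, 3 of 3 knockout vehicle, 1 of 3 wild-type IIAEK and 3 of 3 wild-type vehicle arrays. Its IIAEK difference was -1.50 (limma, unadjusted p of 0.0129) in knockout mice, without overlap between the groups, and -1.19 (limma, unadjusted p of 0.0392) in wild-type mice. Its knockout difference was 0.12 under IIAEK and 0.43 under vehicle. Both probes gave an IIAEK difference below 0 in both genotypes, which for the brightest probe in knockout mice was -0.26 without replicate 1. Few IIAEK arrays of the second probe were above background, so its knockout difference under IIAEK is read against background, and the large one rests on the brightest probe alone. The third probe was well above background on 2 of 12 arrays and the fourth on 0 of 12, and neither passed the filter. Both are assigned to the same transcript as the brightest probe, which was well above background on 10 of 12 arrays. Probes of the same transcript thus differed as well, and the reason was not tested.

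**Figure D3:**
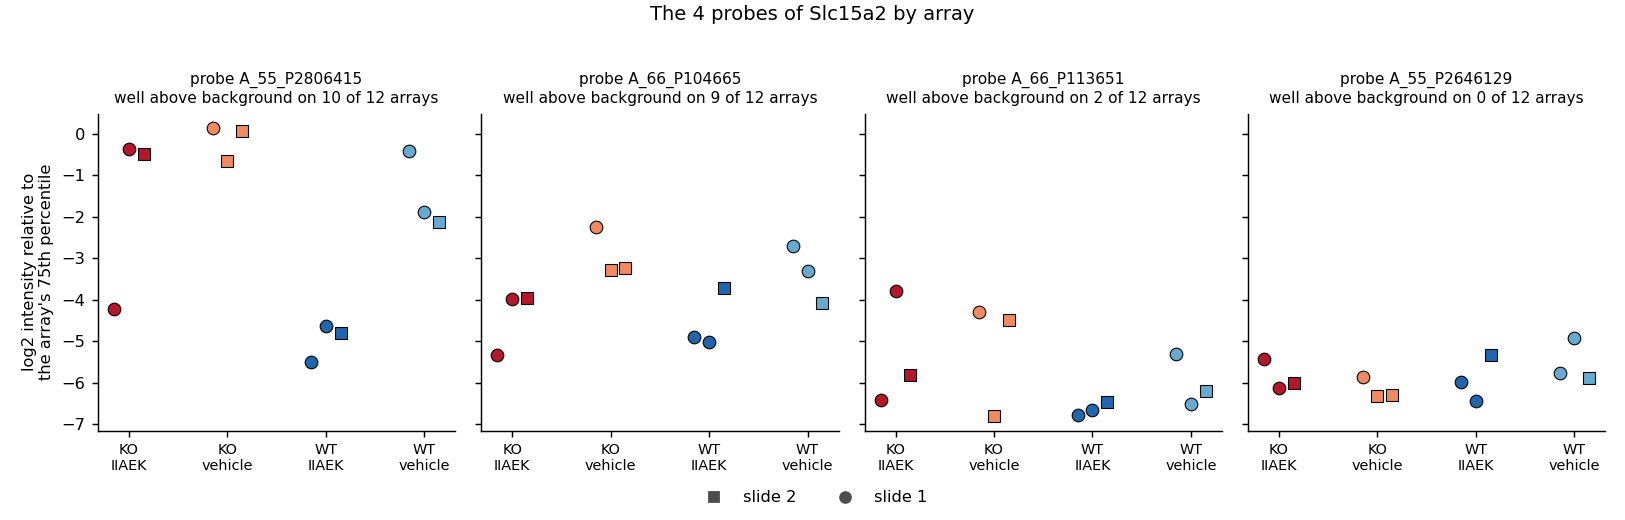
The 4 probes of Slc15a2 on every array (vertical axis, log2 intensity minus the 75th percentile of the array, one panel a probe), in the groups knockout IIAEK, knockout vehicle, wild-type IIAEK and wild-type vehicle from left to right. The brightest probe lies between -5.49 and -4.64 on the wild-type IIAEK arrays and between -2.13 and -0.40 on the wild-type vehicle arrays, and the second probe overlaps between these groups.

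The size of the Slc15a2 difference also moved with the treatment of background. After normexp correction the IIAEK difference in wild-type mice was -1.44 and the knockout difference under IIAEK was 1.51, in place of -3.50 and 3.29. With the mean of the probes these were -2.34 and 1.71. Cell type lists that could hold Slc15a2 were set beside it. Of 8 enteric glia and neuron markers 7 were measured, with Gfap below the filter, and their mean level lay between -1.89 and -1.03 in knockout mice given IIAEK, -1.83 and -1.64 in knockout mice given vehicle, -1.77 and -1.38 in wild-type mice given IIAEK, and -1.58 and -1.31 in wild-type mice given vehicle. All 7 macrophage and dendritic cell markers were measured and had a mean level between 0.998 and 1.49 over all arrays. In both lists the IIAEK and vehicle groups overlapped within each genotype, and the genotypes overlapped under IIAEK. Under vehicle the glia and neuron list was lower on all knockout than on all wild-type arrays. Other lists moved with IIAEK in wild-type mice. There 0 of 9 stomach and Brunner's gland markers were above 0 and 9 were below, with a median difference of -2.93. Of 16 pancreas markers 15 were above 0 and 1 below, with a median of 2.14. All 6 B cell markers were below 0, with a median of -2.02. Of these lists 0 passed after adjustment. The part of any of these cell types in the Slc15a2 differences was not tested. The 2 of 4 kidney-type apical transport markers that were measured lay between -5.52 and -1.58 in their mean. Slc34a1 lay between -4.30 and -3.53. Slc5a2 ran from -6.75 on wild-type vehicle replicate 1 to 1.03 on knockout vehicle replicate 2. The pancreas list had the same lowest and highest arrays, so the spread of this mean is largely that of Slc5a2.

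Slc6a19 is the main sodium-coupled carrier of neutral amino acids in the brush border. Its level was 3.30, 3.44 and 2.51 in knockout mice given IIAEK, and 3.10, 3.09 and 3.40 in knockout mice given vehicle. It was 2.75, 3.35 and 3.00 in wild-type mice given IIAEK, and 2.56, 2.44 and 2.93 in wild-type mice given vehicle. Under vehicle all 3 knockout arrays were above the 3 wild-type arrays, and the other pairs of groups overlapped. That knockout difference was 0.56 (95% interval 0.01 to 1.11, limma, adjusted p = 0.993), and under IIAEK it was 0.05. The IIAEK difference was -0.12 (-0.66 to 0.43) in knockout mice and 0.39 (-0.16 to 0.94) in wild-type mice.

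Slc6a20a carries proline and related imino acids across the brush border. Its level was 2.45, 2.84 and 2.61 in knockout mice given IIAEK, and 2.47, 3.06 and 2.87 in knockout mice given vehicle. It was 3.18, 3.23 and 3.07 in wild-type mice given IIAEK, and 2.26, 2.34 and 2.81 in wild-type mice given vehicle. The wild-type IIAEK group was tight and lay above every array of the other 3 groups, though barely so for knockout vehicle replicate 2 (3.07 against 3.06). The share of all features with a group above the other 3 was not computed. Its mean was 3.16 ± 0.08, against 2.47 ± 0.30 in wild-type mice given vehicle (SD, n = 3 each). The IIAEK difference was -0.17 (95% interval -0.59 to 0.25) in knockout mice and 0.69 (0.27 to 1.11; limma, adjusted p = 0.999) in wild-type mice. In wild-type mice 5.58% of all features were higher under IIAEK without overlap, and 2.19% were lower in knockout than in wild-type mice under IIAEK without overlap, as Slc6a20a was.

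The difference between the IIAEK effects on Slc6a20a, knockout minus wild type, was -0.86 (95% interval -1.45 to -0.26), which ranked 43rd of all features by an unadjusted limma p of 0.00875 and did not pass after adjustment. Knockout against wild type gave -0.53 (-0.95 to -0.11) under IIAEK and 0.33 (-0.09 to 0.75) under vehicle. The wild-type IIAEK difference was 0.26 within slide 2, from 1 array against 1, and 0.91 within slide 1. With stomach and pancreas marker levels as covariates it was 0.49. Slc6a20b, the close relative of Slc6a20a, gave -1.30 (95% interval -2.86 to 0.27) for IIAEK in knockout mice and 1.63 (0.07 to 3.20) in wild-type mice. Its difference between the effects was -2.93 (-5.14 to -0.72, no call in limma). The signs of both relatives were the same in each of these contrasts. Slc6a20b is 1 of 22 further transporters measured and was named after its values had been seen. The shared signs are therefore a description and not support for a difference of Slc6a20a. Whether a probe of either gene also reads the other was not tested.

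**Figure D4:**
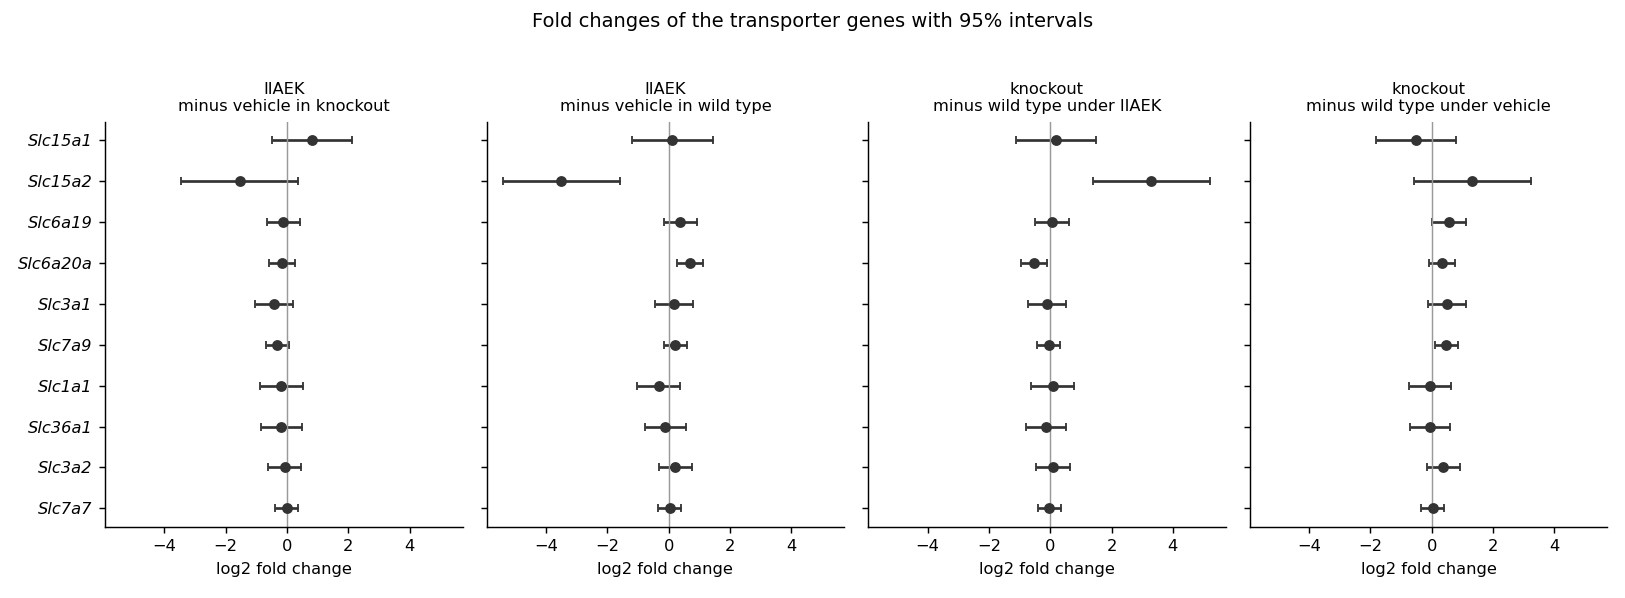
Log2 differences of the 10 carriers with 95% intervals in the contrasts IIAEK minus vehicle in knockout mice, IIAEK minus vehicle in wild-type mice, knockout minus wild type under IIAEK and knockout minus wild type under vehicle. The intervals of Slc15a2 are the widest of the 10, and 0 of the 10 carriers passed an adjusted p under 0.05 in these panels.

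Slc3a1 is the heavy chain and Slc7a9 the light chain of the brush border exchanger for cystine and the dibasic amino acids lysine and arginine. Slc3a1 was 2.82, 2.76 and 1.68 in knockout mice given IIAEK, and 2.65, 3.04 and 2.82 in knockout mice given vehicle. It was 2.36, 2.91 and 2.32 in wild-type mice given IIAEK, and 2.32, 2.20 and 2.53 in wild-type mice given vehicle. Knockout vehicle arrays lay above all wild-type vehicle arrays, and knockout IIAEK replicate 3 was the lowest of the 12. Slc7a9 showed the same order on those arrays. It was 4.15, 4.18 and 3.61 in knockout mice given IIAEK, and 4.12, 4.47 and 4.28 in knockout mice given vehicle. It was 3.90, 4.11 and 4.09 in wild-type mice given IIAEK, and 3.71, 3.77 and 3.96 in wild-type mice given vehicle.

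Under vehicle, knockout exceeded wild type by 0.48 for both chains, with a 95% interval of -0.14 to 1.10 for Slc3a1 and of 0.10 to 0.85 for Slc7a9. With Slc6a19 they were the 3 of 10 carriers whose knockout vehicle arrays all lay above the wild-type vehicle arrays. The share was 8.5% over all features, with 5.87% in the other direction and 14.4% in either, and the 3 carriers are not independent of one another. With stomach and pancreas marker levels as covariates the differences were 0.30 for Slc6a19, 0.12 for Slc3a1 and 0.28 for Slc7a9. Other cell types moved with this contrast, and their part in it was not tested. Stomach markers were at 4.61 or above on 1 of 3 knockout vehicle arrays and 3 of 3 wild-type vehicle arrays. All 16 pancreas markers measured were higher in knockout mice, with a median difference of 2.14. This rested largely on wild-type vehicle replicate 1. The mean pancreas level was 1.88, 8.02 and 8.43 in wild-type mice, and 6.73, 8.99 and 8.57 in knockout mice. All 6 B cell markers were lower, with a median of -1.99 and 5 at an unadjusted limma p under 0.05. The mean B cell level was 1.06, 0.35 and -2.64 in wild-type mice, and -2.58, -2.28 and -2.60 in knockout mice. Of either list 0 passed after adjustment. As each array was left out in turn, the difference ranged from 0.45 to 0.70 for Slc6a19, from 0.38 to 0.58 for Slc3a1 and from 0.39 to 0.56 for Slc7a9. Under IIAEK the knockout difference was -0.11 (-0.73 to 0.51) for Slc3a1 and -0.05 for Slc7a9.

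The IIAEK difference in knockout mice was -0.41 (95% interval -1.03 to 0.21) for Slc3a1 and -0.31 (-0.69 to 0.06) for Slc7a9. It rested on 1 array, since without knockout IIAEK replicate 3 it was -0.04 for Slc3a1 and -0.13 for Slc7a9. Within slide 2, where that array is the only one of its group, Slc3a1 gave -1.25 (limma, adjusted p = 0.0441, with a spread from the 2 knockout vehicle arrays alone), and within slide 1 it gave 0.14. The same array had the lowest villus enterocyte level of the 12, 6.89 with the next at 7.04. It had the highest smooth muscle level, 3.28 with the next at 2.69, and the highest fibroblast and endothelium level, 2.28 with the next at 1.76. The part of these cell types in the low values of this array was not tested.

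Because a heavy and a light chain join into 1 carrier, their levels were compared array by array. Over the 12 arrays, after the mean of each group had been removed, Slc3a1 and Slc7a9 gave a Pearson r of 0.887 (permutation p = 0.00031, adjusted 0.00155 over 5 pairs tested) and a Spearman rho of 0.811 (permutation p = 0.00219, adjusted 0.00694). The shuffling ran across all 12 arrays and not within groups, although removing a group mean ties the values of that group together. These permutation p-values can therefore be too small. Without the 2 arrays farthest from the median of Slc3a1, r was 0.758. Within slides, where the levels were used with group differences left in, r was 0.956 on the 5 arrays of slide 2 (exact permutation, adjusted p = 0.0417) and 0.912 on the 7 arrays of slide 1 (exact permutation, adjusted p = 0.0312). Slc7a9 ranked 316th of 15585 genes in its r with Slc3a1, so many genes followed Slc3a1 at least as closely. Both chains also followed the villus enterocyte level, with r of 0.807 for Slc3a1 and 0.701 for Slc7a9, and with that level removed the r between them was 0.764. Without knockout IIAEK replicate 3, and with the villus level left in, r was 0.681 (permutation, adjusted p = 0.0473).

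Slc3a2 and Slc7a7 were compared within slides, because Slc3a2 differed between them, and their levels were used with group differences left in. On the 7 arrays of slide 1, r was 0.919 (exact permutation p = 0.000992, adjusted 0.00248) and rho was 0.964 (adjusted 0.00694 by the exact permutation test). Without the 2 arrays farthest from the median r was 0.765. On the 5 arrays of slide 2 r was -0.0661 (exact permutation, adjusted p = 0.992). The difference between the slides in r was not tested.

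**Figure D5:**
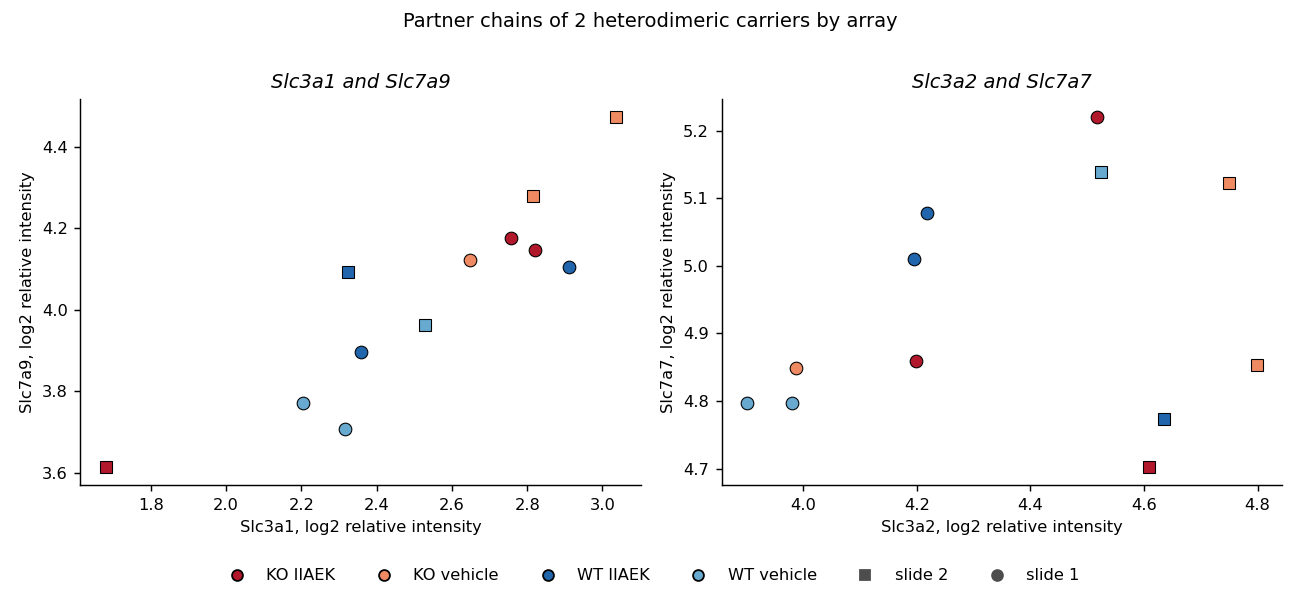
Levels of the heavy chain (horizontal axis) and the light chain (vertical axis) on each array, as log2 intensities minus the 75th percentile of the array, for Slc3a1 with Slc7a9 and for Slc3a2 with Slc7a7. Squares are arrays of slide 2, circles arrays of slide 1, colours the 4 groups. For the levels shown r is 0.956 on slide 2 and 0.912 on slide 1 for the first pair, and -0.0661 on slide 2 and 0.919 on slide 1 for the second.

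The promoters of the chains that moved together over all 12 arrays are shown to set their sequences side by side. They come from RefSeq on GRCm38.p6, run from 250 bases before to 50 bases after the annotated start, and are written 5′ to 3′ on the + strand of the genome, which is the strand of both genes. Slc3a1 lies at chr17:85028097-85028396 and Slc7a9 at chr7:35448842-35449141. Capitals mark matches on either strand to TATAAA, to the Hnf4a motif CAAAGTCCA and to the Gata4 motif AGATAA. The searches for the Sp1 motif GGGCGG and the Cdx2 motif TTTATG found no match in these windows.
Slc3a1: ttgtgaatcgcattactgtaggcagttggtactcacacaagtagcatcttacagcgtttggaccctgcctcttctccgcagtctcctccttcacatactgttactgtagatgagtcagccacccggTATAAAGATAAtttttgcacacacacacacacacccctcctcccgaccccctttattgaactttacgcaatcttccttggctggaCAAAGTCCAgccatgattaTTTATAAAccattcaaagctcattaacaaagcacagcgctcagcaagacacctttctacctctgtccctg
Slc7a9: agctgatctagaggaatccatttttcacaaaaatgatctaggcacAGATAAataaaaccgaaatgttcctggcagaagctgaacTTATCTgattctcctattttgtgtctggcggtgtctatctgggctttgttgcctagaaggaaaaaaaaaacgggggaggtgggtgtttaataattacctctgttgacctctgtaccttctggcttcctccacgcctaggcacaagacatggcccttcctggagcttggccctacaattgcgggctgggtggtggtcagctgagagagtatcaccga

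Both windows printed hold AGATAA, at -119 in Slc3a1 and at -205 and -166 in Slc7a9, where positions count from the annotated start and name the first base of the match in the direction of the gene. AGATAA was present in 11.2% of the 32851 promoters of this length in the table. The Slc3a1 window also holds CAAAGTCCA at -39, a sequence present in 0.475% of these promoters. It holds TATAAA at -124, -20 and -18, present in 13.6%. The first TATAAA and AGATAA share 1 base, and the matches at -20 and -18 overlap on opposite strands. Of the 15 promoters that RefSeq gives for the 10 carriers, TATAAA and CAAAGTCCA were found only in that of Slc3a1. AGATAA was also found at -95 in Slc15a2, and at -190 and -213 in overlapping windows of Slc7a7. It is therefore not particular to Slc3a1 and Slc7a9. RefSeq gives Slc7a9 a second start, whose window at chr7:35448929-35449228 overlaps the first and holds 0 matches to these motifs. A match of letters is a description of the sequence and not a binding site.

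Slc1a1 is the carrier of glutamate and aspartate, which are also the main fuels of the enterocyte. Its level was -1.19, -0.66 and 0.05 in knockout mice given IIAEK, and -0.58, -0.42 and -0.23 in knockout mice given vehicle. It was -0.34, -1.01 and -0.68 in wild-type mice given IIAEK, and -0.35, -0.80 and 0.11 in wild-type mice given vehicle. All 4 groups overlapped. The IIAEK difference was -0.19 (95% interval -0.89 to 0.51) in knockout mice and -0.33 (-1.03 to 0.37) in wild-type mice, and the second probe gave -0.45 and -0.20.

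Slc36a1 moves small neutral amino acids such as glycine and proline together with protons, at the brush border and at the lysosome. Its level was -1.86, -1.12 and -1.21 in knockout mice given IIAEK, and -1.47, -0.59 and -1.59 in knockout mice given vehicle. It was -0.86, -1.54 and -1.39 in wild-type mice given IIAEK, and -1.16, -1.38 and -0.94 in wild-type mice given vehicle. The groups overlapped, and the IIAEK difference was -0.18 (95% interval -0.84 to 0.48) in knockout mice and -0.10 (-0.76 to 0.56) in wild-type mice. Its second probe was well above background on 4 of 12 arrays and failed the filter.

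At the basolateral membrane, Slc3a2 was 4.20, 4.52 and 4.61 in knockout mice given IIAEK, and 3.99, 4.80 and 4.75 in knockout mice given vehicle. It was 4.22, 4.19 and 4.64 in wild-type mice given IIAEK, and 3.90, 3.98 and 4.52 in wild-type mice given vehicle. The groups overlapped and the highest array of each came from slide 2. The IIAEK difference was -0.07 (95% interval -0.61 to 0.47) in knockout mice and 0.21 (-0.33 to 0.76) in wild-type mice. Under vehicle, where 2 of 3 knockout arrays and 1 of 3 wild-type arrays were on slide 2, the knockout difference was 0.38 (-0.17 to 0.92).

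Slc7a7, the light chain that exports dibasic amino acids in exchange for neutral ones, was the steadiest of the 10 by its span. It was 4.86, 5.22 and 4.70 in knockout mice given IIAEK, and 4.85, 4.85 and 5.12 in knockout mice given vehicle. It was 5.08, 5.01 and 4.77 in wild-type mice given IIAEK, and 4.80, 4.80 and 5.14 in wild-type mice given vehicle. The IIAEK difference was -0.01 (95% interval -0.39 to 0.36) in knockout mice and 0.04 (-0.33 to 0.42) in wild-type mice. The knockout difference under vehicle was 0.03 (-0.34 to 0.40). The 3 intervals together reach from -0.39 to 0.42, and differences within them are not excluded.

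Signs of the 10 differences can be set beside those of all features, without a test. For IIAEK in knockout mice 1 carrier was above 0 and 9 were below, with a median of -0.17, against -0.00 over all features. That median was 0.16 within slide 1 and -0.32 within slide 2. With slide as a block and without knockout IIAEK replicate 3 it was 0.02, so the lean below 0 depended on slide and array. For IIAEK in wild-type mice 7 were above and 3 below, with a median of 0.15, against 0.03. The wild-type median was 0.26 within slide 1 and -0.19 within slide 2. For knockout against wild type 5 were above and 5 below under IIAEK, with a median of 0.01, against -0.01 over all features. Under vehicle 7 were above and 3 below, with a median of 0.35, against 0.03. These contrasts share their groups, so the counts are not independent of one another. The 11 villus enterocyte markers, set beside them, gave 5 above and 6 below 0 for IIAEK in knockout mice, with a median of -0.00, and 11 above 0 in wild-type mice, with a median of 0.18. The part of villus content in the carriers' signs was not tested.

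Of 27 further amino acid and peptide transporters of the plasma membrane, 22 were measured, and 0 passed the test in either direction in any contrast. The IIAEK difference averaged over genotypes was above 0 for 14 and below 0 for 8, with a median of 0.06. The averaged knockout difference was above 0 for 10 and below 0 for 12, with a median of -0.04. Slc38a4 had the smallest unadjusted limma p for IIAEK, 0.0498, with an averaged difference of -0.87. Slc38a5, a glutamine carrier, gave 1.07, Slc1a3 gave 0.17 and Slc1a2, both glutamate carriers, gave -0.56. For the knockout the smallest p-values belonged to Slc7a8 at -0.26, Slc38a2 at 0.17, Slc38a5 at 0.96 and Slc6a6, the taurine carrier, at -0.22. The 16 pancreas markers measured had a median of 1.08 for the averaged IIAEK difference and 1.09 for the averaged knockout difference. Their mean level was lowest on wild-type vehicle replicate 1, at 1.88. The part of pancreas content in the Slc38a5 values was not tested. Slc7a11, Slc6a14, Slc6a18, Slc6a15 and Slc36a2 were not past the filter.

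Brush border and membrane peptidases make the substrates of these carriers. Of 14 listed, 12 were measured, Naaladl1 and Folh1 were not, and 0 passed in any contrast. For IIAEK in knockout mice 0 were above 0 and 12 below, with a median of -0.20, and in wild-type mice 8 were above and 4 below, with a median of 0.11. The median of the difference between these effects was -0.41, with 12 of 12 below 0. Without knockout IIAEK replicate 3, which had the lowest mean peptidase level of the 12 arrays, 2.61 with the next at 3.03, the median was 0.03 in knockout mice and -0.11 for the difference between the effects. With stomach and pancreas marker levels as covariates the difference between the effects had a median of -0.04. The shift in knockout mice thus rested on 1 array. Mep1b, a meprin subunit, gave an averaged IIAEK difference of -0.38 and an averaged knockout difference of 0.35. Mep1a, the other subunit, gave an averaged knockout difference of -0.34, and Tmprss15, the enteropeptidase that activates trypsinogen, gave 0.23.

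The 7 genes listed as partners of apical uptake, or as makers of the ion gradients it uses, were all measured, and 0 passed. For IIAEK 3 were above and 4 below 0 in knockout mice, with a median of -0.10, and 7 were above 0 in wild-type mice, with a median of 0.23. The difference between these effects was above 0 for 1 and below for 6, with a median of -0.34. Averaged over genotypes the IIAEK difference was 0.26 for Atp1b1, a subunit of the sodium pump, and 0.37 for Cltrn, a membrane protein that helps Slc6a19 to the membrane in the kidney. Slc9a3, the sodium-proton exchanger that sustains the proton gradient for Slc15a1, gave an IIAEK difference of -0.63 (95% interval -1.16 to -0.09, no call in limma) in knockout mice and 0.16 (-0.37 to 0.70) in wild-type mice. On the 7 slide 1 arrays the r of its level with that of Slc15a1, group differences left in, was -0.825 (exact permutation p = 0.0284, adjusted 0.0355), while rho was -0.429 (adjusted 0.442 by the exact permutation test). Without the 2 arrays farthest from the median of Slc15a1 r was -0.0784, so the relation rests on those arrays. On the 5 slide 2 arrays r was 0.00855.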

How the data were processed

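Total RNA of mouse duodenum, 1 array per sample and 3 arrays per group, was labelled with Cy3 using an Agilent linear amplification kit, per the labels' protocols, and read with Agilent Feature Extraction 10.7.3.1, per the file headers. In the deposited scanner files each spot has a processed signal, an intensity on a linear scale that the authors' software had already corrected for background. The authors' deposited value table holds log2 values of the same arrays, and set against the scanner files it proved to be scaled to the 75th percentile, with every probe centred on its median (lowest r 0.999996, column medians -0.09 to 0.12). It served as a check of the scanner values and as an alternative to them.

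Control spots (3671 of 62976) and 22 probes with outlier flags were left out, and spots of a probe were averaged. The log2 processed signal minus the 75th percentile of the array was used. A probe stayed in if some group had it well above background on all 3 of its arrays. The brightest probe on average stood for a gene, and 26107 features remained. limma 3.58.1 in R 4.3.3 fitted 1 mean per group to all 12 arrays, with eBayes and an intensity trend, two-sided, with Benjamini-Hochberg adjustment over all features and a threshold of 0.05. The median SE of a contrast was 0.243 between 2 groups. The fit was tested on simulated data. Correlations used deviations from group means over 12 arrays, or levels within a slide with group differences left in, and permutation tests, 100000 resamples for 12 arrays and exact for 7 or 5 (2 of the 5 pairs tested are not reported here), in python 3.11.15 with scipy 1.17.1. Nothing in the labels says whether samples of a group were independent in handling, so p-values measure the spread between these samples.

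Names came from the accessions in the scanner files through RefSeq tables on GRCm38.p6. All 10 carriers matched the promoter table. The carriers and gene lists were chosen with earlier results of these data known, so their counts are descriptions. The genes named in the text are the 10 carriers and, of each list, up to 4 with the smallest p in an averaged contrast, and genes named beyond that were chosen after their values were seen. The lists are further plasma membrane transporters, lysosomal transporters, partners of apical uptake, brush border peptidases, cytosolic peptidases, ATF4 targets and regulators of Slc15a1, with cell type markers. Replicate numbers were not used to pair the samples in the main fit. Of 12 arrays 5 correlated best with an array of their own number. That tally neither shows nor excludes pairing, since the number also goes with the slide in part. Alternatives were other scalings, background corrections and filters, the authors' value table, other ways to join probes, slide and replicate blocks, single slides, marker covariates and each array left out. Slide as a test, and the slide block without knockout IIAEK replicate 1 or 3, were added after seeing the data.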

Additional observations from a re-analysis of the deposited data

How the results depend on the processing

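Of 186 counts of called carriers recomputed under the alternatives, 179 stayed at 0. Slc15a2 made the count 1 for knockout against wild type under IIAEK and for the averaged knockout effect, without knockout IIAEK replicate 1 (alone or with slide as a block) and within slide 2. Slc3a1 made it 1 for IIAEK in knockout mice within slide 2, where every group but knockout vehicle is a lone array assumed to vary like that pair. Leaving out each array in turn gave counts between 0 and 1 for those 2 knockout contrasts and 0 for the others. With the replicate number as a block 0 carriers were called in any contrast, and the smallest adjusted limma p for IIAEK in wild-type mice was 0.958. Whether the numbers pair the samples is not known, since 5 of 12 arrays correlated best with their own number, which neither shows nor excludes it. Of 1853 gene values, 168 changed sign, 0 of them past the threshold. Of 17 values over 0.5 in size 2 turned, both of Slc15a1 within slide 2, at -0.38 for IIAEK in knockout mice and -0.20 for the difference between the effects. The filter on all 12 arrays removed Slc15a2. The cause of these changes was not tested. Leaving out each array in turn, r ranged from -0.893 to -0.727 for Slc15a1 with Slc9a3, which lost its call without any 1 of 6 slide 1 arrays (kept without knockout vehicle replicate 1). It ranged from 0.681 to 0.954 for Slc3a1 with Slc7a9 and from 0.805 to 0.980 for Slc3a2 with Slc7a7 (lost without knockout IIAEK replicate 2). Within slide 2, Slc3a2 with Slc7a7 gave -0.0661 and Slc15a1 with Slc9a3 gave 0.00855. Precision was limited by 3 arrays a group and, for Slc15a2, by signal near background.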

Other observations

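The genes whose group-centred levels followed Slc15a1 most closely over the 12 arrays, among 15585 genes, were Wfdc17, a secreted protein of activated macrophages (r = 0.981), Manea, a mannosidase of the Golgi (0.980), Ddias (0.975), Pum2, an RNA-binding protein (0.975), and Gpalpp1 (0.972). With the slide difference also removed, r was 0.951 for Wfdc17, 0.899 for Manea, 0.893 for Ddias, 0.860 for Pum2 and 0.848 for Gpalpp1. These are descriptions of arrays that share their slides. Wfdc17 differed between slides by -0.84, Manea by -1.02, Ddias by -0.44, Pum2 by -0.36 and Gpalpp1 by -0.22 (slide 2 minus slide 1). The genes were picked by their r with Slc15a1 on these same arrays, with the slide difference left in. A shared slide difference therefore comes with the choice and is not a separate result.

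Inside the cell, none of the lists held a gene that passed an adjusted limma p under 0.05 in any contrast. Of 6 lysosomal transporters, Slc15a4, a carrier of peptides and histidine, gave the smallest unadjusted limma p for the averaged knockout difference (-0.30, p of 0.0069), with -0.13 under IIAEK and -0.47 under vehicle. Ctns, the cystine exporter of the lysosome, gave an averaged IIAEK difference of 0.21. Of 7 cytosolic peptidases, which cleave absorbed peptides, Xpnpep1 gave -0.16 and Npepps 0.17 for IIAEK. Of 13 ATF4 targets, which answer to amino acid shortage, 7 were above 0 and 6 below for the averaged knockout difference, with a median of 0.02. Ddit4, an inhibitor of mTORC signalling, gave -0.70 there, 0.03 under IIAEK and -1.44 under vehicle, and Ddit3 gave -0.30. Chac1 gave an averaged IIAEK difference of -0.48. Of 7 factors described as regulators of Slc15a1, Ppara, a fatty acid receptor, gave an averaged knockout difference of -0.42 (limma, unadjusted p of 0.0159), and Nfe2l2 and Cdx2 gave averaged IIAEK differences of 0.21 and 0.15.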
